A study of Mus musculus with 9 samples.

Results

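Pools of mouse brain RNA had been hybridised in numbered replicates, and the 3 arrays titled as biological replicate 1, 1 from each strain, were set against the 6 arrays titled as replicate 2 or 3. The 3 arrays were chosen by their titles alone, out of 9 in all, and strain was kept as a block, so that the contrast asks which transcripts differed between pools whatever the strain. The inbred strains were C57BL/6ByJ, BALB/cJ and B6By.C.132.54, and each contributed 1 array to replicate 1 and 2 arrays to the rest. B6By.C.132.54 is congenic on the C57BL/6ByJ background, so the 3 strains are not 3 unrelated genotypes. All mice were untreated adult males of 11 ± 1 weeks, killed by cervical dislocation, and left or right hemispheres were taken in alternation. Each array held pooled RNA of 10 hemispheres without cerebellum, from 30 mice per strain and 90 in all, so an array averages over animals. The design text gives 3 batches with every strain in each. Whether the numbers in the titles stand for these batches, and what pools of the same number share, is not given in the labels. The p-values therefore measure only the spread between pools.

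A forebrain hemisphere mixes neurons with astrocytes, oligodendrocytes, microglia and vessels. Some of its transcripts are known to move within minutes to hours: immediate early genes respond to neuronal activity and handling, clock genes follow the time of day, and stress-response genes follow the state of the tissue. The array, Affymetrix Mouse430_2, reads a gene through 1 or several probe sets, which can match different stretches, transcript ends or splice forms of the same gene. In the manufacturer's naming, a set ending in _a_at matches alternative transcripts of a gene, one in _s_at matches transcripts shared between genes, and one in _x_at holds probes that also resemble other sequences; the remainder end in plain _at. Labelling starts at the poly(A) tail, so probe sets farther from it depend more on intact RNA and on full-length cDNA synthesis.

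The 3 replicate 1 arrays lay together on the second principal component, which held 25.7% of the variance of all probe sets. Their scores were 18.97, 22.44 and 13.45 for C57BL/6ByJ, BALB/cJ and B6By.C.132.54, above all 6 other arrays, whose highest score was 3.377. B6By.C.132.54 replicate 3 stood far apart from the rest at -46.44, so the 25.7% also holds the distance of this array. It had the lowest mean intensity (71.8 against 77.5 to 80.6 on the other arrays), and counts that changed without it are given both ways. The components and the variance shares that follow are those of all 9 arrays. Strain accounted for 38.1% of the summed variance, the contrast of replicate 1 with the other numbers for 22.2%, and replicate 2 against replicate 3 for 11.4%. Brain markers stood high: Snap25 (neurons), Slc1a2 (astrocytes) and Mbp (myelin) were at the 99.7th, 99.7th and 100th percentile of genes by level. The cerebellar Gabra6, Pcp2 and Cbln3 stood at the 33.6th, 45.8th and 45.8th. The pituitary Prl, Gh and Lhb stood at the 33rd, 40.7th and 55.7th. Of 10 cerebellar and 8 pituitary markers measured, 5 and 6 lay below the median level of all probe sets. In bulk tissue, fewer cells of a type and less RNA per cell cannot be told apart.

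**Figure D1:**
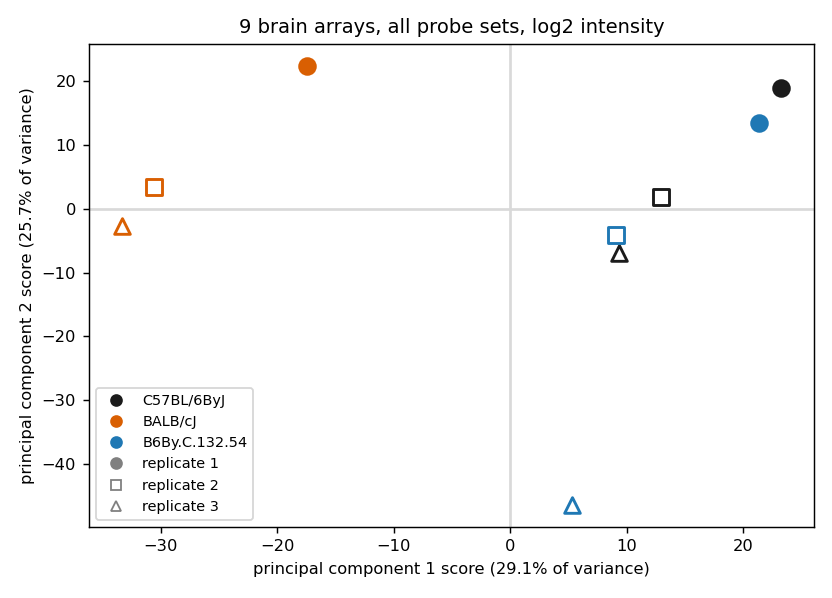
Scores of the 9 arrays on the first and second principal components of the log2 intensity of all probe sets (29.1% and 25.7% of the variance); colour gives the strain and symbol the replicate number. The 3 filled replicate 1 arrays sit at 13.45 or above on the vertical axis, the other 6 at 3.377 or below, and B6By.C.132.54 replicate 3 lies alone at -46.44.

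Transcript levels differed between replicate 1 and the other pools at 1443 of 45037 probe sets (3.2%), 1007 higher (2.24%) and 436 lower (0.968%) in replicate 1, by limma with strain as a block and a Benjamini-Hochberg adjusted p under 0.05. At 1441 of the 1443 the replicate 1 array lay on the same side of both other arrays in all 3 strains; over all probe sets, it lay above both at 7.53% and below both at 10.8%. At 1266 its 3 values lay outside the whole range of the other 6. Among all probe sets, replicate 1 lay above the other 6 at 4.47% and below them at 4.69%. Higher values moved further: the median difference was 0.59 on the log2 scale among the higher and -0.38 among the lower, 110 probe sets were at least 1 log2 unit higher, and 1 was as much lower. That one (1455930_at) had no gene name in the annotation used; it read 3.88, 4.42 and 4.12 in replicate 1 against 4.82 to 5.62 (median 5.21) elsewhere, a difference of -1.07 (limma with Benjamini-Hochberg adjustment, adjusted p = 0.000422). Within strains, the median of the higher probe sets was 0.55 in C57BL/6ByJ, 0.54 in BALB/cJ and 0.68 in B6By.C.132.54.

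The balance of directions moved with a single array and with the treatment of dim probe sets. Without B6By.C.132.54 replicate 3, limma called 2253 probe sets (5%), 1168 higher and 1085 lower, so 51.8% were higher in place of 69.8%, and 1436 of the 1443 were among them. With 16 added to each intensity before the logarithm, 53.2% of 1862 calls were higher, and 58.2% of 1849 when only probe sets at or above the median level were tested. The count fell by more than 1.5 times without C57BL/6ByJ replicate 1 (438) or 3 (750), BALB/cJ replicate 1 (509), 2 (958) or 3 (909), and B6By.C.132.54 replicate 1 (270). At the level of genes, each read by its brightest probe set, 531 of 18193 were called (2.92%), 295 higher (1.62%) and 236 lower (1.3%). Leaving out B6By.C.132.54 replicate 3 gave 906, of which 349 were higher and 557 lower. Gene counts without each other array ran from 60 without B6By.C.132.54 replicate 1, through 108 and 138 without C57BL/6ByJ and BALB/cJ replicate 1, 231 and 329 without C57BL/6ByJ replicates 3 and 2, and 301 and 304 without BALB/cJ replicates 3 and 2, to 525 without B6By.C.132.54 replicate 2.

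Set against each other number separately, replicate 1 differed from replicate 2 at 985 probe sets (2.19%), 625 higher (1.39%) and 360 lower (0.799%), by limma with Benjamini-Hochberg adjustment. From replicate 3 it differed at 1571 (3.49%), 1288 higher (2.86%) and 283 lower (0.628%). The share of higher calls against replicate 2 was 63.5%, and 81.9% after quantile normalization. Replicates 2 and 3 differed at none by limma, although 4701 had an unadjusted p under 0.05 and the lowest adjusted p was 0.339. These contrasts share arrays and 1 estimate of the spread. No probe set was called for a replicate 1 difference that varied with strain, by limma's moderated F-test of the interaction. In that test 352 of 45037 had an unadjusted p under 0.05, fewer than chance alone would give. Its spread within a probe set came only from replicate 2 against replicate 3 of the same strain, B6By.C.132.54 replicate 3 included. The lack of calls therefore does not show that the difference was equal in the strains. The count against replicate 2 fell to 176, 251 and 325 without replicate 1 of B6By.C.132.54, C57BL/6ByJ and BALB/cJ, and to 358, 329 and 226 without replicate 2 of the same strains; it was 1718 without B6By.C.132.54 replicate 3. Against replicate 3 it fell to 537, 758 and 807 without replicate 1 of B6By.C.132.54, C57BL/6ByJ and BALB/cJ, and to 1153 without B6By.C.132.54 replicate 3.

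**Figure D2:**
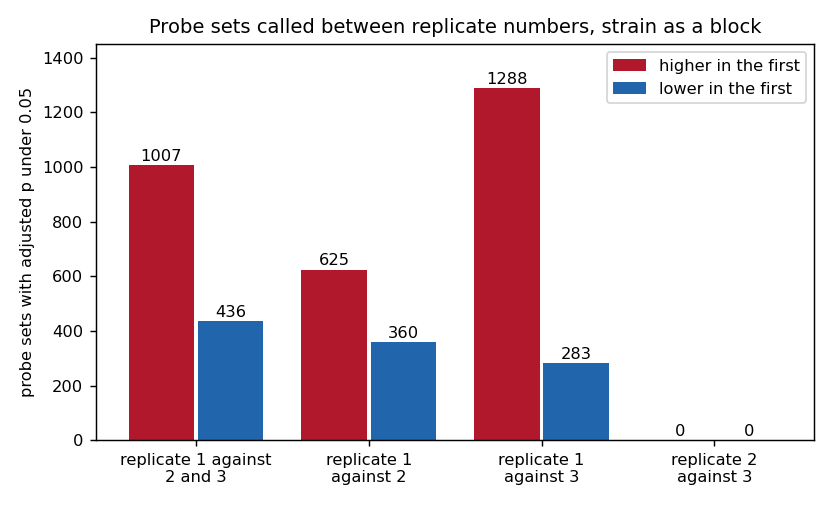
Number of probe sets, of 45037, with a limma adjusted p under 0.05 in each comparison of replicate numbers, with strain as a block; red bars are higher and blue bars lower in the first-named replicate. Replicate 1 differed from both other numbers (625 and 360 against replicate 2, 1288 and 283 against replicate 3), and replicates 2 and 3 from each other at none.

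The 12 genes with the largest rise in replicate 1 rose by 1.21 to 1.66 on the log2 scale. Rbis, a factor in ribosome assembly, read 6.31, 6.11 and 6.49 in C57BL/6ByJ, BALB/cJ and B6By.C.132.54 replicate 1. It ran from 4.43 to 4.87 with a median of 4.64 on the other 6 arrays, so every replicate 1 pool was higher by more than the whole spread of the others. The difference was 1.66 ± 0.0895 (SE; limma with Benjamini-Hochberg adjustment, adjusted p = 2.06e-05). Fbxo11, the substrate-binding part of a ubiquitin ligase, read 6.42, 6.56 and 6.38 against 4.74 to 5.18 (median 5.05), a difference of 1.43 ± 0.0911 (limma, adjusted p = 6.07e-05). Fscn1, which bundles actin filaments, read 9.27, 9.0 and 9.38 against 7.54 to 8.14 (median 7.87), a difference of 1.34 ± 0.130 (limma, adjusted p = 0.000439). Fscn1 was higher only through this probe set: the differences of its 3 other sets were -0.14, -0.47 and -0.37, none of them called.

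Next in size came Snhg14, the long noncoding transcript that hosts small nucleolar RNAs in the imprinted Prader-Willi region and runs antisense to Ube3a. It read 7.92, 7.08 and 7.68 against 5.85 to 6.50 (median 6.33), with no overlap although the BALB/cJ pool rose least (1.33 ± 0.144; limma, adjusted p = 0.000746). Qk, an RNA-binding protein of glia that steers splicing of myelin transcripts, read 8.73, 8.73 and 8.91 against 7.29 to 7.78 (median 7.54; difference 1.26 ± 0.109, limma adjusted p = 0.000261), and it was the gene among the 12 with a second probe set called the same way. The others were C1d (1.33), a partner of the nuclear exosome, Lrrc58 (1.29), the activity-dependent transcription factor Egr3 (1.28), Strip2 (1.27), the nucleotide-sugar transporter relative Slc35a5 (1.23), the chromatin-bound Psip1 (1.23) and the peroxisomal membrane protein Acbd5 (1.21). In 11 of the 12 the replicate 1 arrays did not overlap the rest. In Slc35a5 they did, because BALB/cJ replicate 1 read 6.17 and the other arrays reached 6.54. The 12 were picked among called genes with replicate 1 on 1 side in all 3 strains, so this separation follows largely from the choice. Among all called probe sets, 1266 of 1443 had no overlap. Within single strains the differences of the 12 ran from 0.98 to 1.86. All 12 were called without any 1 array, except Slc35a5 without B6By.C.132.54 replicate 1 (limma, adjusted p = 0.0623). Of the 12, 9 had other probe sets. By the median over a gene's probe sets, Fscn1, Snhg14, C1d, Slc35a5 and Psip1 were not called.

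The 12 genes with the largest fall moved by -0.67 to -0.52. Purb, a single-strand nucleic acid binding protein, was the brightest of them, at 9.73, 9.84 and 9.78 in replicate 1 against 10.22 to 10.40 (median 10.29), a difference of -0.52 ± 0.0696 (limma with Benjamini-Hochberg adjustment, adjusted p = 0.00278). Its groups did not overlap, but another set of Purb read 0.33 higher in replicate 1 (limma, adjusted p = 0.0531). Ap2b1, a subunit of the clathrin adaptor AP-2, read 7.97, 8.03 and 7.77 against 8.46 to 8.71 (median 8.52), again without overlap (-0.62 ± 0.0857; limma, adjusted p = 0.0031). Pnisr, an arginine-serine-rich nuclear protein, fell most by its brightest set, at 7.09, 7.06 and 6.65 against 7.28 to 7.99 (median 7.60). The difference was -0.67 ± 0.153, also without overlap (limma adjusted p = 0.0413). Another of its 7 sets was called 0.56 higher. The remaining ones differed by -0.06 to 0.32, mostly higher in replicate 1, and none passed. Pnisr was not called when the median over its probe sets replaced the brightest. The splicing regulator Sfswap (-0.54), the microtubule-binding Eml2 (-0.52), the filamin-binding Rflnb (-0.57), Mmgt2 (-0.56) and the clock repressor Nr1d1 (-0.55) did not overlap either. Ier2, Serpina1b, Cdh6 and Pou3f1 overlapped. Serpina1b has close paralogs that its probe set may not separate. The 12 falls were picked in the same way as the rises, so the lack of overlap in 8 of them follows largely from the choice.

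More of the falls than of the rises lost their call without 1 array. Of the 12 falls, 1 (Serpina1b) stayed called without B6By.C.132.54 replicate 1, 4 without C57BL/6ByJ replicate 1, 6 without BALB/cJ replicate 1, 8 without C57BL/6ByJ replicate 3, 9 without BALB/cJ replicate 2 or 3, 11 without B6By.C.132.54 replicate 2, and 12 without either of the other arrays (adjusted p up to 0.325). All kept their direction in each of these fits.

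**Figure D3:**
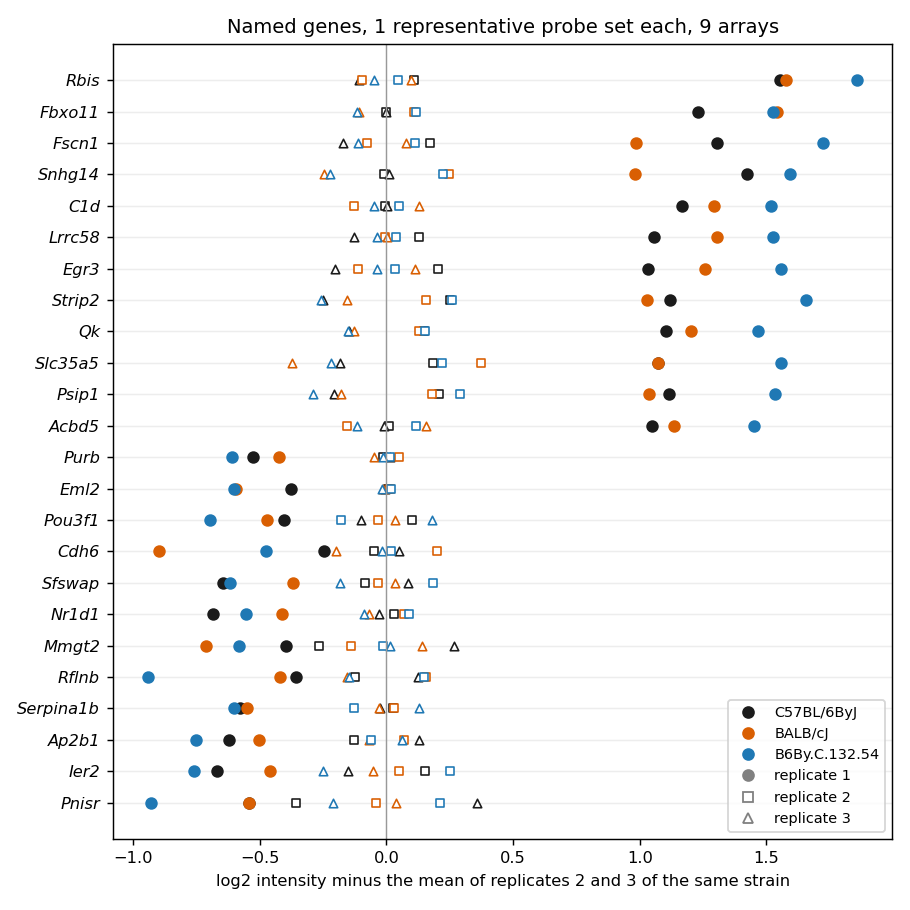
Log2 intensity of the 12 genes with the largest rise and the 12 with the largest fall in replicate 1, each by its brightest probe set, minus the mean of replicates 2 and 3 of the same strain; filled circles are replicate 1, open squares replicate 2 and open triangles replicate 3. The filled circles run from 0.98 to 1.86 for the genes that rose and from -0.25 to -0.94 for those that fell, while the open symbols scatter around 0.

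Most higher calls stood in a single probe set of a gene. Of 9010 genes read by several probe sets, 661 had a set called higher, and in 562 of them it was 1 set with no other set called. In 88 genes at least 2 sets were called higher and none lower, and in 12 genes every set was. In 11 genes a set was called higher and another lower, among them Lasp1, Gmps, Atxn2 and Id4. Of the called sets, 564 were not the brightest of their gene. Their median difference was 0.62, while the brightest sets of the same genes had a median of 0.00 (59 of them called higher as well). The 564 were picked by their calls in these data and the brightest sets were not, so a gap follows from the choice alone. Of the called higher sets of these genes, 72.8% were not the brightest, and of the called lower sets 54.8%, against 65% of all their sets. With B6By.C.132.54 replicate 3 left out, 649 sets called higher were not the brightest. Their median was 0.54, and the brightest sets of their genes had -0.02. For the lower sets the corresponding medians were -0.40 and -0.12 over 159 sets, and -0.36 and -0.12 over 432 sets without that array.

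Gja1, the main gap junction protein of astrocytes, held the largest difference of all. Its set 1438945_x_at read 7.32, 7.22 and 7.10 in replicate 1 against 4.23 to 5.56 (median 5.34), without overlap (2.02 ± 0.198; limma with Benjamini-Hochberg adjustment, adjusted p = 0.000452). Its second brightest set, 1415801_at, read 8.02, 7.92 and 7.88 against 7.58 to 8.19 (median 7.96), a difference of -0.01 (limma, adjusted p = 0.971), and the groups overlapped. Of the 6 Gja1 sets, 3 were called higher, among them the brightest (1.03, limma adjusted p = 0.00507). Gja1 was also called by the median over its sets. The following genes were chosen after their values were seen. Ran, the GTPase of nuclear transport, was called higher in 3 of 6 sets, by 1.06, 1.27 and 1.72, while its brightest set differed by 0.16 (limma, adjusted p = 0.496). Gria2, a subunit of AMPA-type glutamate receptors, read 7.89, 7.95 and 7.85 against 6.42 to 6.87 (median 6.66) in 1434146_at, where the groups stood far apart. Its brightest set read 10.02, 10.09 and 9.96 against 9.65 to 10.04 (median 10.02), where they overlapped, and the differences were 1.24 and 0.07 (limma, adjusted p = 0.000137 and 0.753). Cnr1, the cannabinoid receptor of axon terminals, differed by 1.19 in its brighter set and by 0.03 in the other.

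Hspa8, the constitutive heat-shock chaperone, was called higher by 0.40 in its brightest set and by 1.56 in its dimmer 1420622_a_at, and not in its other 2 sets (0.34 and 0.03). The actin-associated Lasp1 had 9 sets, with 4 called higher (0.53 to 1.11), 1 called lower (-0.57) and 4 that did not pass. Gmps, an enzyme of guanine nucleotide synthesis, fell by 0.39 in its brightest set and rose by 0.62 in its dimmest, so that the sets of this gene disagreed in direction. The lowest p-values of all belonged to sets of Rufy3 (1442786_s_at, 1.72), a protein of axon growth, and of Paics (1436298_x_at, 1.91), an enzyme of purine synthesis (both limma adjusted p = 1.05e-05). The Rufy3 set read 8.77, 8.68 and 8.50 against 6.72 to 7.11 (median 6.92).

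**Figure D4:**
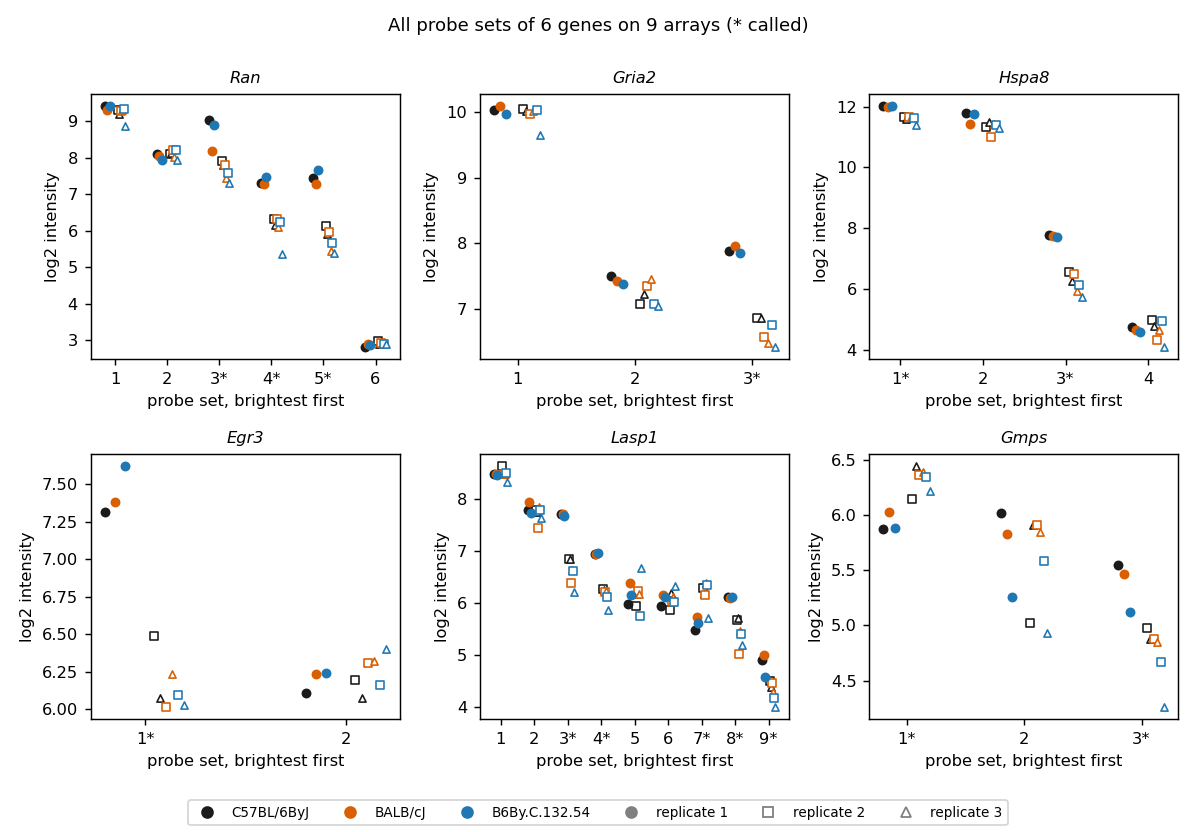
Log2 intensity of every probe set of 6 genes on the 9 arrays, ordered from the brightest set on the left; filled circles are replicate 1, open symbols replicates 2 and 3, and an asterisk marks a set called by limma. Within Ran and Gria2 the brightest set shows overlapping groups (differences 0.16 and 0.07) and a dimmer one shows replicate 1 well above the others (1.72 and 1.24).

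The kind of probe set and its level moved with the calls. Higher calls made up 1.46% of sets ending in plain _at, 4.34% of _a_at, 4.93% of _s_at and 7.62% of _x_at. Lower calls made up 0.831%, 2.15%, 1.01% and 0.819% of them. When B6By.C.132.54 replicate 3 was left out, the higher shares were 1.73%, 4.72%, 5.84% and 8.64% in that order. The lower shares then rose to 2.12%, 4.59%, 3.35% and 1.88%. In 4 equal bins of probe sets from the lowest to the highest mean level, higher calls made up 0.355%, 1.07%, 2.59% and 4.92%. The genes called higher spanned a median of 36.3 kb in RefSeq (assembly GRCm38.p6), those called lower 17.7 kb, genes at or above the median level 24.3 kb and all genes 20.3 kb. Median promoter GC content was 62.3%, 63.7%, 61.3% and 58.7% in the same order.

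Some measures of RNA and hybridisation quality also separated replicate 1. The log2 ratio of the 3′ to the 5′ control set of beta-actin was 0.71 to 0.78 in replicate 1 and 0.51 to 0.60 on the other arrays. That of Gapdh was -0.60 to -0.49 and -0.41 to -0.27, so it moved in the opposite direction, and those of the transferrin receptor, pyruvate carboxylase and 18S controls overlapped. Of 64 control sets, 9 read higher in replicate 1 than on every other array and 5 lower. Over all probe sets tested, these shares were 4.47% above and 4.69% below. The 9 came from the Cre, bioD and dap spike-ins and the B2 repeat. Other sets of bioD and dap overlapped, as did all sets of bioB and bioC. Among the 9 were the Cre spike-in (CreX-5, 11.71 to 12.14 against 11.32 to 11.54) and a control for the B2 repeat (MUR_b2, 7.45 to 7.49 against 6.71 to 6.97). The part of these measures in the gene differences was not tested.

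Gene lists were read by the brightest set of each gene and set beside all 18193 genes, of which 1.62% were called higher and 1.3% lower, 7156 lay above 0 and the median was -0.04. In the brightest bin of probe sets, 4.92% were called higher and 2.75% lower. Of all genes 6724 lay below the median level, but none of the splicing, vesicle traffic, neuron, GABA or channel lists did. The shares over all genes are therefore a low background for such lists. Of 710 entries in 46 lists, 648 were measured; the others were not analysed here. Counting every probe set with 1 gene, 2.46% were called higher and 1.13% lower, and 4.09% and 2.13% of genes had any such set. Sets that are not the brightest, and genes called only without B6By.C.132.54 replicate 3, were named after their values were seen. Leaving out that array changed the counts of members called by the brightest set only where this is stated. Every list member called with it was also called without it. Counts above 0 and medians are those of all 9 arrays, and these moved without it. In the vesicle traffic list they went from 15 to 13 and from 0.08 to 0.02. The count above 0 went from 11 to 9 among ribosomal protein genes and from 4 to 5 among immediate early genes. Among the splicing factors, 6 of 26 were called higher and 1 lower, with 13 above 0 and a median of 0.00; without B6By.C.132.54 replicate 3 these counts were 7 and 1, with Tra2b added. Over all their probe sets 27 of 122 were called higher, in 12 genes, and 1 lower. Ddx5, an RNA helicase of splicing complexes, read 9.47, 9.34 and 9.42 against 8.23 to 8.94 (median 8.83), above every other array (0.66 ± 0.131; limma with Benjamini-Hochberg adjustment, adjusted p = 0.0223). Luc7l2, a component of the U1 particle, read 9.14, 9.11 and 9.12 against 8.19 to 8.58 (median 8.53), with replicate 1 again apart (0.66 ± 0.088; limma, adjusted p = 0.00274). Srsf1 (0.45), Srsf3 (0.45), Hnrnpa2b1 (0.42) and Hnrnpk (0.38), all binders of pre-mRNA, were the others that rose, the last 3 named after their values were seen. Srsf3 rose in 5 of its 6 sets, by 0.45 to 0.93. Pnisr was the list member that fell by its brightest set, while another of its sets was called higher.

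Among chromatin remodellers 2 of 19 rose and 1 fell, with a median of -0.11: the helicases Atrx (0.65) and Smarca2 (0.62) rose, and the histone methyltransferase Kmt2a fell by 0.35. Over all 54 of their probe sets 2 were called higher and 3 lower, and the histone demethylase Kdm6b was also called lower without B6By.C.132.54 replicate 3. Of 13 nuclear and imprinted long noncoding RNAs, 1 (Snhg14) was called. Core histones had none called of 6 and a median of -0.16 (H3f3a -0.36; limma, adjusted p = 0.095), although 1 of their 10 probe sets was called higher. Without B6By.C.132.54 replicate 3, H3f3a and H1f2 of the 6 were called lower. Of the cell cycle genes none of 16 was called, with a median of -0.13, and the cyclin gene Ccnd2 had the largest difference (-0.32). Of the 11 called genes of these lists, 1 (Snhg14) was called without any 1 array. It was not called when the median over its probe sets replaced the brightest (0.13). By that median Luc7l2, Atrx, Smarca2, Kmt2a and Pnisr were not called either, while Ddx5 and Srsf1 were. The number still called was 4, 9 and 5 without C57BL/6ByJ replicates 1, 2 and 3, 3, 8 and 7 without those of BALB/cJ, and 1, 10 and 11 without those of B6By.C.132.54 (adjusted p up to 0.36).

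Genes of vesicle traffic had the next largest count, with 4 of 22 called higher, none lower, 15 above 0 and a median of 0.08; over all probe sets 9 of 62 were called higher and none lower. Rab2a, a GTPase between endoplasmic reticulum and Golgi, read 10.28, 10.11 and 10.16 against 9.39 to 9.79 (median 9.58), without overlap (0.59 ± 0.076; limma with Benjamini-Hochberg adjustment, adjusted p = 0.00212). The early endosome GTPase Rab5a (0.63), the COPII coat subunit Sec23a (0.50) and the clathrin heavy chain Cltc (0.42) rose as well. Rab5a overlapped, since BALB/cJ replicate 1 read 8.88 and the other arrays reached 8.97.

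In the chaperone lists the endoplasmic reticulum proteins Hsp90b1 (0.71) and Dnajb9 (0.47) rose, 2 of 16 genes of the unfolded protein response, with a median of 0.04, and Hspa8 was the 1 of 17 heat shock genes. Single members rose in the lists of antioxidant enzymes (the catalase gene Cat, 0.83; 1 of 16), cytoskeleton (the tubulin gene Tubb2a, 0.71; 1 of 16), proteasome (Psma1, 0.40; 1 of 20) and ubiquitin ligases (Ube3a, 0.40; 1 of 16). In the cytoskeleton list the tubulin gene Tubb4a was called lower without B6By.C.132.54 replicate 3. Over all probe sets the higher calls were 4 of 41 for heat shock, 3 of 36 for the unfolded protein response, 4 of 40 for antioxidant enzymes, 4 of 35 for the cytoskeleton, 4 of 46 for the proteasome and 6 of 73 for ubiquitin ligases, with none lower. In Cat the BALB/cJ pool was the low one of replicate 1, at 4.86, just above the highest other array at 4.78. None of 14 ribosomal protein genes was called by its brightest set, with 11 above 0 and a median of 0.09; their largest difference was in Rps20 (0.41; limma, adjusted p = 0.0589, and 0.0104 with each replicate number as a level of the block). Over all their probe sets 6 of 40 were called higher, 3 of Rps24 and 1 each of Rps20 (1.43), Rps9 (0.85) and Rpl7 (0.52), in families with many near-identical pseudogenes. By the brightest set none was called among 19 respiratory chain genes (median -0.04), 15 of mitochondrial translation (-0.06) and 15 of cholesterol synthesis (-0.08). Their largest differences were in Cox7a2 (0.23), a cytochrome oxidase subunit, the mitochondrial ribosomal protein gene Mrpl34 (-0.30) and the sterol oxidase gene Msmo1 (0.26). Over all probe sets 4 of 34 respiratory chain and 4 of 35 cholesterol sets were called higher. Of the 11 called genes of these lists, Rab2a was called without any 1 array. It was not called when the median over its probe sets replaced the brightest (0.05), and neither were Psma1 and Ube3a. The number still called was 1, 6 and 4 without C57BL/6ByJ replicates 1, 2 and 3, 6, 8 and 9 without those of BALB/cJ, and 2, 10 and 11 without those of B6By.C.132.54 (adjusted p up to 0.321).

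Synaptic and neuronal genes moved both ways. Snap25, a fusion protein of the presynaptic terminal, read 11.35, 11.32 and 11.16 against 10.60 to 10.93 (median 10.86), and replicate 1 did not overlap (0.45 ± 0.0827; limma with Benjamini-Hochberg adjustment, adjusted p = 0.0156). With the dendritic protein Map2 (0.40) it made 2 of 12 neuron markers called higher, with a median of 0.07. Kcnd2, a potassium channel of dendrites, read 8.28, 8.17 and 8.27 against 7.4 to 7.73 (median 7.54), also apart (0.69 ± 0.0763; limma, adjusted p = 0.000846). With the sodium channel Scn1a (0.49), it made 2 of 20 voltage-gated channels called by the brightest set; over all 60 sets 2 were called higher and 2 lower. Without B6By.C.132.54 replicate 3 the list had 3 higher, with Kcna2 added, and 2 lower, Cacna1g and Kcna1. Of 14 genes of the GABA system, 2 rose, the receptor subunits Gabrb2 (0.58) and Gabra4 (0.54), with a median of 0.07. Over all probe sets 6 of 39 were called higher, among them 1 of Gad1 (0.95), which makes GABA, and 1 of Gabra2 (0.48), and the subunit gene Gabrd was called lower without B6By.C.132.54 replicate 3. Another Gabrb2 set rose by 0.55, and one differed by -0.41 without passing (limma, adjusted p = 0.0629). The glutamate transporter Slc17a6 (0.40) was called in the synaptic vesicle list (2 of 16, with Snap25) and in that of the thalamus (1 of 10). Over all 36 synaptic vesicle sets 2 were called higher and 2 lower. Without B6By.C.132.54 replicate 3, the vesicle list gained Rab3a higher and Cplx2 lower, and the thalamic list Rora lower.

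On the postsynaptic side 2 of 13 scaffold genes fell by their brightest set and none rose, with a median of -0.13. Over all 40 sets 3 were called higher, 1 each of Dlgap1 (0.88), Homer1 (0.57) and Nrxn3 (0.82), and 2 lower. Dlg4, the PSD-95 scaffold, read 7.4, 7.59 and 7.4 against 7.76 to 8.05 (median 7.99), below every other array (-0.48 ± 0.0882; limma with Benjamini-Hochberg adjustment, adjusted p = 0.0156), and Baiap2 fell by 0.47. Grik5, a kainate receptor subunit, was the 1 of 19 glutamate receptor genes called by its brightest set (-0.38). Sets other than the brightest rose in Gria2 (1.24), Gria3 (0.57), Gria4 (0.53) and Grik3 (0.68), which made 4 of 35 sets higher and 1 lower. Grm5 was called higher by its brightest set without B6By.C.132.54 replicate 3. The serotonin receptor Htr2c rose (0.40) and acetylcholinesterase, Ache, fell by 0.37, the 2 called of 19 monoamine and acetylcholine genes. Neurod6 (0.74) and Ccn3 (0.40) rose among 13 cortical and hippocampal markers, where Cux1 was called lower without B6By.C.132.54 replicate 3 and where 3 of 33 sets were called higher and 2 lower, and Baiap3 fell by 0.42 among 15 hypothalamic ones. By the brightest set none was called among 12 striatal (median -0.12; Gpr6 0.52, limma adjusted p = 0.0583, and 0.0113 with each replicate number as a level of the block), 13 olfactory bulb, 10 cerebellar or 8 pituitary markers. The largest differences there were in Th, the first enzyme of dopamine synthesis (-0.25), the granule cell factor Neurod1 (0.38) and the growth hormone gene Gh (0.34). Over all probe sets 1 of 21 striatal, 2 of 19 olfactory bulb and 1 of 23 cerebellar sets were called higher. Pde1b and Ppp1r1b of the striatal list were called lower when B6By.C.132.54 replicate 3 was left out. Of the 15 called genes of these neuronal lists, Neurod6 and Kcnd2 were called without any 1 array. When the median over a gene's probe sets replaced the brightest, Neurod6 stayed called and Kcnd2 did not (0.02). Map2, Slc17a6, Gabrb2, Scn1a, Htr2c, Dlg4 and Baiap2 were not called by it either. The number still called was 3, 12 and 9 without C57BL/6ByJ replicates 1, 2 and 3, 3, 11 and 8 without those of BALB/cJ, and 2, 12 and 15 without those of B6By.C.132.54 (adjusted p up to 0.299).

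Markers of other brain cells gave few calls. Microglia and complement genes had none of 12 called and none above 0, with a median of -0.17; the largest difference was in Itgam (-0.28; limma with Benjamini-Hochberg adjustment, adjusted p = 0.156). Their summed intensity was 1253 to 1415 in replicate 1 and 1383 to 1618 on the other arrays, so the ranges overlapped. In C1qb, a complement subunit of microglia, 2 sets other than the brightest were called 0.60 and 0.52 higher, while the brightest read -0.19. Among 11 astrocyte genes only Gja1 was called, with a median of -0.17: its brightest set read 9.56, 9.71 and 9.61 against 8.02 to 8.97 (median 8.62), without overlap (1.03 ± 0.154; limma, adjusted p = 0.00507). Slc1a3 and Sox9 of that list were called lower without B6By.C.132.54 replicate 3. Over its 35 sets 4 were called higher, 3 of Gja1 and 1 of the water channel Aqp4 (0.75), and 1 of the receptor Fgfr3 was called lower (-0.69).

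Of 10 myelin genes 2 rose, Cldn11 (0.50), a tight junction protein of the sheath, and Ugt8a (0.50), which makes its galactolipids, while the structural Mbp read -0.13 and the list median was -0.02; 5 of 27 sets were called higher, and Opalin was called lower without B6By.C.132.54 replicate 3. Slc2a1, the glucose transporter of brain endothelium and a hypoxia target, read 8.24, 8.26 and 8.44 against 7.31 to 7.57 (median 7.51), apart from the rest (0.83 ± 0.085; limma with Benjamini-Hochberg adjustment, adjusted p = 0.000578). It was the 1 called of 11 vessel and of 14 hypoxia genes, whose medians were 0.00; its other 2 sets differed by 0.13 and -0.17 and were not called. By the brightest set none was called among 6 oligodendrocyte precursor, 7 smooth muscle, 14 choroid plexus and ependyma, 11 meningeal or 8 blood cell genes. Their largest differences were in Gpr17 (-0.28) of the precursors, the myosin light chain gene Myl9 (-0.23), the klotho gene Kl of the choroid plexus (-0.29), the collagen gene Col3a1 (-0.15) and the neutrophil gene Lcn2 (0.24). Gpr17 was called lower without B6By.C.132.54 replicate 3. Ttr, the abundant transthyretin of the choroid plexus, read 12.21, 12.15 and 12.12 against 11.81 to 11.99 (median 11.89), above every other array without passing in its brightest set (0.27; limma, adjusted p = 0.0632). A pair of dimmer Ttr sets rose by 0.61 and 0.36. The summed intensity of the 14 choroid plexus genes was 4985 to 5251 in replicate 1 and 4097 to 4628 elsewhere, without overlap, although 3 of the 14 lay above 0 and the median was -0.04. The 6 sex-linked genes, of which the X-linked Eif2s3x had the largest difference (0.26), held no call. By the median over a gene's probe sets, Ugt8a and Slc2a1 were not called, while Gja1 and Cldn11 were. Of Gja1, Cldn11, Ugt8a and Slc2a1, the last was called without any 1 array. The number still called was 3 without each C57BL/6ByJ array, 1, 4 and 3 without BALB/cJ replicates 1, 2 and 3, and 1, 4 and 4 without those of B6By.C.132.54 (adjusted p up to 0.323).

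Of 22 immediate early genes, 1 was called in each direction; 4 lay above 0 and the median was -0.13. Over all 40 of their sets 2 were called higher and 1 lower. Ier2 read 5.28, 5.63 and 4.98 against 5.49 to 6.14 (median 6.01), overlapping through the BALB/cJ pool (-0.63 ± 0.118; limma with Benjamini-Hochberg adjustment, adjusted p = 0.017). Egr3 went the other way, at 7.31, 7.38 and 7.62 against 6.02 to 6.49 (median 6.09), without overlap (1.28 ± 0.117; limma, adjusted p = 0.00033), whereas its second set read -0.05. The clock list had 1 of 17 called and a median of -0.10. Nr1d1, which encodes the repressor REV-ERB alpha, read 6.11, 6.55 and 6.29 against 6.76 to 7.03 (median 6.86), below all others (-0.55 ± 0.0804; limma, adjusted p = 0.00447). Its partner Nr1d2 read 0.55 in the brightest set (limma, adjusted p = 0.0625) and -0.32 in the other. Neither the glucocorticoid targets (none of 14; Sgk1 0.55, limma adjusted p = 0.0566) nor the interferon genes (none of 14; Ifi27 -0.29) nor the antigen presentation genes (none of 11; Psmb8 -0.23) held a call. Leaving out B6By.C.132.54 replicate 3, limma called Junb and Ifi27 lower and Nr1d2 higher. Egr3 was called without any 1 array, Ier2 not without any of the replicate 1 arrays, and Nr1d1 not without C57BL/6ByJ or B6By.C.132.54 replicate 1 (adjusted p up to 0.19).

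**Figure D5:**
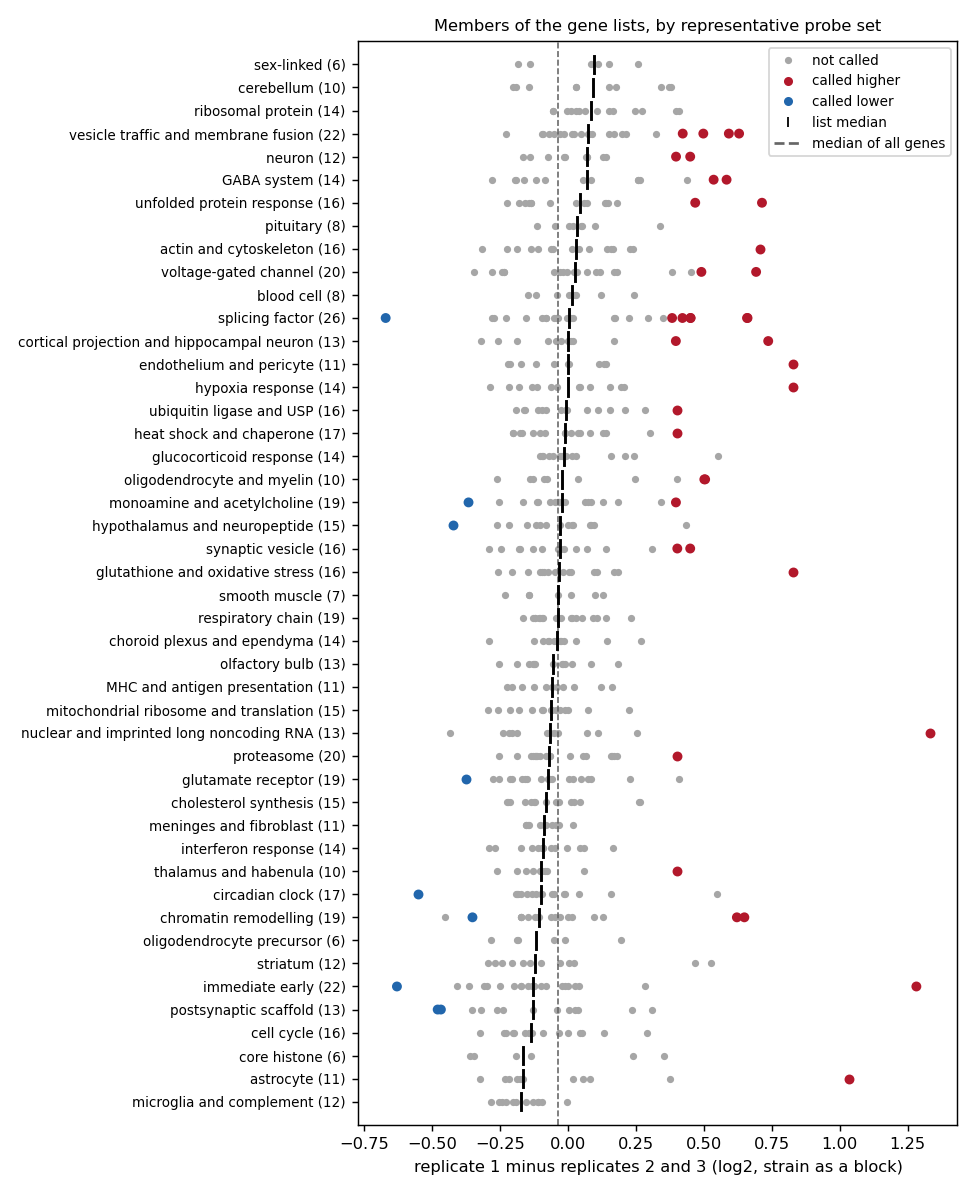
Difference between replicate 1 and the mean of replicates 2 and 3 (log2, strain as a block) for each member of 46 gene lists, with the number of measured members in brackets; grey points were not called by limma, red were called higher and blue lower, black ticks are list medians and the dashed line is the median of all genes (-0.04). Splicing factors hold 6 red points and 1 blue, vesicle traffic genes 4 red, and all 12 microglia genes lie below 0.

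The gene results moved with the choice of probe set. With the median over a gene's probe sets in place of the brightest, limma called 611 genes. Of the 60 named genes that were called, 30 remained called in the same direction, 25 no longer passed and 5 changed sign. The 5 were Fscn1, Slc35a5, Purb, Map2 and Scn1a, whose other sets disagreed with the brightest. Purb was then called higher (0.33; limma with Benjamini-Hochberg adjustment, adjusted p = 0.0397).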

How the data were processed

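Total RNA of pooled hemispheres was hybridised to 9 Mouse430_2 arrays (7 µg, biotin label, per the labels' protocols). The authors deposited a linear intensity for every probe set; GCOS and RMA are named, per the submitters' processing notes, and background treatment, normalization and versions are not given in the sources used here. The deposited intensities were taken to log2 values with no pseudocount and no further normalization. Of 45101 probe sets 64 controls were left out. By the platform's annotation 34945 probe sets had 1 gene, 932 several and 9160 none; 34741 symbols were updated through RefSeq (GRCm38.p6).

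A model with strain and a term for replicate 1 was fitted with limma 3.58.1 in R 4.3.3 (lmFit, eBayes, two-sided, 5 residual and 5.731 prior degrees of freedom), with Benjamini-Hochberg adjustment over 45037 probe sets and a threshold of 0.05. Other contrasts had the number as 3 levels. On simulated data for this contrast with 45037 probe sets, the model recovered 82% of shifts of 0.5 on the log2 scale and 100% of 1 or more, and called 13 unchanged sets. The shifts were planted only in probe sets at or above the median level, with noise drawn independently for each array. Recovery and false calls were thus not measured for shifts in dimmer sets or for arrays that deviate together. Same-numbered arrays of different strains deviated together from their strain means. The r over probe sets was 0.519 to 0.542 for replicate 1, 0.147 to 0.180 for 2 and 0.205 to 0.266 for 3. Replicate 2 with replicate 3 gave -0.007 to 0.153, which overlaps the range for 2. Each strain mean came from 3 arrays, so a replicate 1 difference alone raises r among the other arrays. The data thus set the replicate 1 arrays together, while the low r within 2 and 3 does not by itself show pairing. What same-numbered pools share is not given in the labels. Array number limits the precision.

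Named genes were the 12 with the largest difference each way among called genes on 1 side in all 3 strains, by brightest probe set, and in each list every called member (the 4 largest where over 4 were called) or otherwise the largest. Comparison and lists were chosen with earlier results of these data known. Alternatives changed the block, normalization, level filter, variance model, pseudocount, probe set rule and kind (the last chosen after seeing the data), and left out each array.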

Additional observations from a re-analysis of the deposited data

Results flagged for a closer look

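In 84 groups of arrays checked for a value far from the others, 7 held one; chance flags about 1 in 20 such groups. B6By.C.132.54 replicate 3 had the lowest mean intensity (71.81) and the lowest 99th percentile of log2 intensity (9.837) of the 9 arrays. Among the 6 arrays of replicates 2 and 3 the same array was the far low one for Hspa8 (11.4 on the log2 scale), Ddx5 (8.228) and Eif2s3x (7.877). C57BL/6ByJ replicate 3 was the far low one for Baiap2 (8.201) and Ache (6.858). The differences of these genes without each of those arrays kept their direction.

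Control probe sets lie outside the gene comparison, and 9 of 64 read higher in every replicate 1 array than in any other. The log2 differences were 0.3003 and 0.4282 for the 3′ and 5′ CreX sets, 0.3337 and 0.2929 for the corresponding r2-P1-cre sets, 0.6998 and 0.3995 for r2-Ec-bioD, 0.4642 for r2-Bs-dap-3, and 0.5841 and 0.2192 for the B2 repeat sets MUR_b2 and MURINE_B2. Another 5 control sets read lower in every replicate 1 array than in any other. Over the 45037 probe sets that are not controls, the shares were 4.47% higher and 4.69% lower. The part of the control sets in the gene differences was not tested.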

How the results depend on the processing

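The 1443 probe sets called in replicate 1 against the others kept their sign under every alternative fitted to them. The replicate block, with each number as a level, called 1884 probe sets and 713 genes and changed no call of the 60 named genes. With only plain _at probe sets, chosen after seeing the data, there were 573 probe sets, 244 genes, 314 against replicate 2 and 680 against replicate 3; fewer probe sets were tested. Without the strain block 492 and 993 were called against replicates 2 and 3. The count against replicate 2 was 1527 with a trended, robust variance and 1716 with a pseudocount of 16. Gene counts were 815 with dim sets left out and 880 with the pseudocount, of which 47.1% and 36.7% were higher in place of 55.6%. The cause of these shifts was not tested. Without 1 array at a time the counts ran from 270 to 2253 probe sets, 60 to 906 genes, 176 to 1718 against replicate 2 and 537 to 1670 against replicate 3. Replicate 2 against 3 and the strain interaction gave 0 in each fit run; the replicate block gave no separate value for them, and the interaction was not run without the strain block. Of 1060 fits of the 60 called genes, 822 kept the call, 233 lost it and 5 changed sign, all with the median over probe sets: Fscn1 (-0.31), Slc35a5 (-0.21), Purb (0.33), Map2 (-0.091) and Scn1a (-0.25). Lcn2, not called, ran from -0.012 (without C57BL/6ByJ replicate 1) to 0.38 without 1 array at a time.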
